A study of Mus musculus with 12 samples.

Results

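Interleukin-6 and the components that carry its signal were followed in BV-2 microglia through 4 genes, the cytokine Il6, its receptor chains Il6ra and Il6st, and the feedback inhibitor Socs3. The genes were chosen by name, as the probe sets annotated to them, with earlier results of these data known. They hold 10 of the 45101 probe sets on the array and 4 of 18194 named genes. Il6 had 1 probe set, Il6ra 2, Il6st 4 and Socs3 3. Each of the 4 genes reached a mean signal of 50 in at least 1 condition, and all 4 were among the 12071 genes tested.

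BV-2 is an immortalized mouse microglial line. The cells were left untreated, or were kept for 24 h with 50 µM luteolin, a plant flavonoid, with 50 ng/ml LPS, the bacterial cell wall component sensed by Toll-like receptor 4, or with both. There were 3 arrays in each of the 4 conditions, 12 in all, and per the study's methods they came from independent stimulation experiments. The luteolin stock was made in DMSO. The paper calls its array controls non-stimulated or control-treated and its qRT-PCR controls mock-treated, without naming DMSO. Whether the control arrays received DMSO is not stated in the sources used here, so luteolin and its solvent cannot be told apart. The sample labels name BV-2 cells for the treatment and PUER cells for the RNA extraction. Of 10 microglial markers with a value, 8 had a mean signal of at least 50 in all 4 conditions, whereas the defining genes Cx3cr1 and P2ry12 stayed near or under that level, with highest means of 54.6 and 73.8. Tmem119, which is among the 8, was also low, with means of 58.5 to 77.4, and the neuronal marker Rbfox3 was higher, at 193 to 214. The markers of neurons, astrocytes, oligodendrocytes and fibroblasts had a summed signal of 804 to 940 on every array, with 13 of 20 under 50 in all conditions and 5 over it. The latter sum was 828 to 854 in the control arrays, 824 to 898 with luteolin, 804 to 940 with LPS and 866 to 909 with luteolin + LPS. The summed signal of the 10 microglial markers ran from 44136 to 47404 in the control arrays, 41626 to 49922 with luteolin, 36825 to 43791 with LPS and 35972 to 48562 with luteolin + LPS. Single markers shifted both ways between LPS and luteolin + LPS, Aif1 from a mean of 224 to 59.8 and Itgam from 447 to 279, but Csf1r from 6651 to 8544 and Tyrobp from 8930 to 10296. From control to LPS, Trem2 went from 4031 to 2223 and Tyrobp from 12881 to 8930. The part of these shifts in the results was not tested.

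Interleukin-6 is a secreted cytokine of the acute inflammatory response. It binds the receptor chain encoded by Il6ra, and the complex then engages gp130, the signal-transducing chain encoded by Il6st, which is shared with the related cytokines. Gp130 activates JAK kinases and the transcription factor STAT3, and STAT3 induces Socs3, whose product binds gp130 and ends the signal. In microglia, LPS induces Il6 through NFkB and C/EBP factors. Cells that shed the receptor chain release a soluble form, which carries the cytokine to cells that have gp130 alone.

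The sequence upstream of Il6 and of Il6ra is printed because the former gene had the strongest response to LPS among the 4 and the latter moved in the opposite direction. Each sequence is the 250 bases before the annotated start, 5′ to 3′ on the strand of the gene, from RefSeq and build GRCm38.p6. Capitals mark matches on either strand to the NFkB motif, the C/EBP motif TTGNNCAA, the AP-1 motif TGANTCA, the cyclic AMP response element ACGTCA and the STAT motif TTCNNNGAA.
Il6: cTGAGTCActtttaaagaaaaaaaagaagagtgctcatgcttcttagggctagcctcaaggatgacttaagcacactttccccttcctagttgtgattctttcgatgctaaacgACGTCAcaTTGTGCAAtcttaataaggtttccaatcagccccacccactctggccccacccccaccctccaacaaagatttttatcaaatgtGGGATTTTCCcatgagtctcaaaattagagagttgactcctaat
Il6ra: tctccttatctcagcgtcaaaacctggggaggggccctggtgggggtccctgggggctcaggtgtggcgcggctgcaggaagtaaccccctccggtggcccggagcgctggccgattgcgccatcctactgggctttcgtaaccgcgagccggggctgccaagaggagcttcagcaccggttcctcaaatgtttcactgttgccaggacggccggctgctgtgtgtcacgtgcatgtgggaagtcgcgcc

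The Il6 window lay at chr5:30012864-30013113 on the plus strand, directly before the gene at chr5:30013114-30019975. It held 4 matches, which did not overlap. The NFkB match GGGATTTTCC began 44 bases before the start, the C/EBP match TTGTGCAA 128 bases before it, the cyclic AMP response element 136 bases and the AP-1 match TGAGTCA 249 bases. Among 32851 windows of the same length, the NFkB motif was found in 3.90%, C/EBP in 5.65%, the cyclic AMP response element in 6.47%, AP-1 in 6.75% and STAT in 7.02%. The Il6ra window at chr3:89913197-89913446, on the minus strand and outside the gene at chr3:89869324-89913196, was 65.2% G and C against 42.8% for Il6 and held none of these letters. The Il6st window, directly before the gene at chr13:112464070-112506860, held none of them either, with 66% G and C. For Socs3, the start listed in the table lies inside the annotated gene at chr11:117966079-117970336, and its window was left out.

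Il6 was the gene that separated LPS-treated from resting cells most clearly. The probe set 1450297_at had signals of 10.9, 25.4 and 32.9 in the control arrays of replicates 1, 2 and 3. With luteolin alone the signals were 12.2, 7.78 and 8.81. With LPS they were 5018, 1836 and 3041, and with luteolin + LPS 2135, 657 and 3163. All 6 arrays without LPS lay under a signal of 50, and all 6 with LPS lay far above it, so these groups did not overlap. The geometric mean was 3037 with LPS and 1643 with luteolin + LPS, with SDs of 0.73 and 1.18 on the log2 scale (n = 3 each).

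LPS raised Il6 by 7.18 on the log2 scale (SE 0.58, limma adjusted p = 2.36e-04). Since the control signals were dim, the size of the change is given as a bound, with each array under 50 set to 50. The mean rise was then at least 60.7-fold (5.92 on the log2 scale, 95% confidence interval 4.83 to 7.02, limma adjusted p = 3.21e-04). In the presence of luteolin, LPS raised the mean of Il6 at least 32.9-fold over luteolin alone. That is 5.04 on the log2 scale (95% confidence interval 3.94 to 6.13 with the floor, limma adjusted p = 1.77e-04 without it). These bounds allow for the dim signals only, and the spread between arrays is in the intervals. Control and luteolin, both under 50, have no order for Il6, and luteolin + LPS and LPS lay above them and were not told apart. Of the 12071 genes tested in LPS versus control, 1.96% were raised and 2.22% lowered at an adjusted p under 0.05. With the replicate number as a block the shares were 4.3% and 6.78%. The share called in luteolin + LPS versus luteolin was 1.81%, and 4.59% with the block. In RNA of whole cultures, a change in the number of cells that make a transcript and a change in its amount per cell cannot be told apart. Luteolin alone was not set against the control for Il6, because both groups lay under 50.

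**Figure D1:**
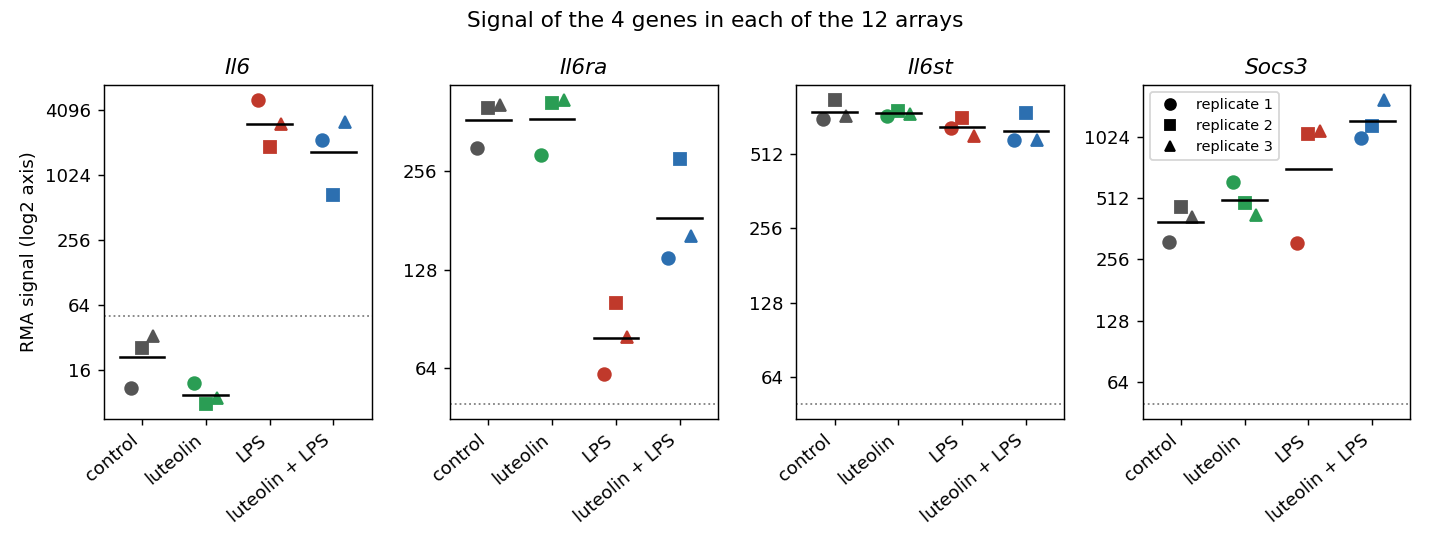
RMA signal of Il6, Il6ra, Il6st and Socs3 (y axis, log2 axis with its own range in each panel) in the 3 arrays of each condition. Symbols give the replicate number, the short line is the geometric mean and the dotted line marks a signal of 50. The 6 arrays without LPS lie under 50 for Il6, and the LPS arrays of Il6ra lie between 61.4 and 101, under all the other arrays.

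The effect of luteolin on the Il6 level of LPS-treated cells was not beyond the spread between arrays. The signal in luteolin + LPS was 54.1% of that in LPS alone, a difference of -0.89 on the log2 scale (SE 0.58, limma adjusted p = 0.529). Its 95% confidence interval ran from -2.17 to 0.40 and so covers both a loss of most of the signal and a small gain. By replicate number, the signal with luteolin + LPS was 42.5%, 35.8% and 104% of the LPS array. Replicates 1 and 2 were thus lower with luteolin, replicate 3 was not, and the arrays of both groups overlapped. The difference shrank to -0.22 when luteolin + LPS replicate 2 was left out and to -0.52 when LPS replicate 1 was, and grew to -1.36 when luteolin + LPS replicate 3 was. It was -0.21 with array weights, which give less weight to arrays that stand apart. Of the genes tested in luteolin + LPS versus LPS, 0.149% were raised and 0.356% were lowered, and with the replicate block 1.95% and 2.84%.

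Il6ra, the ligand-binding chain of the receptor, moved in the opposite direction to the cytokine. The probe set 1452416_at had signals of 302, 401 and 410 in the control arrays and of 287, 416 and 423 with luteolin alone. With LPS they were 61.4, 101 and 79.98, and with luteolin + LPS 139, 280 and 162. Every LPS array lay under every other array, and all 3 arrays with luteolin + LPS lay between the LPS arrays and the arrays without LPS. LPS lowered Il6ra 4.63-fold, which is -2.21 on the log2 scale (SE 0.28, 95% confidence interval -2.82 to -1.60, limma adjusted p = 0.00198).

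In LPS-treated cells the Il6ra signal was 2.33-fold higher with luteolin than without it, a difference of 1.22 on the log2 scale (SE 0.28, 95% confidence interval 0.61 to 1.83). The limma adjusted p was 0.0711 and missed the threshold, and it was 0.00678 with the replicate number as a block. The 3 replicates differed by 1.18, 1.47 and 1.02, all in the same direction. With the mean of both Il6ra probe sets the difference was 0.81 (limma adjusted p = 0.131). Compared with luteolin alone, luteolin + LPS differed by -0.999 (SE 0.28, limma adjusted p = 0.124, and 0.00705 with the block). The contrast of luteolin + LPS with the control was added after the values had been seen. Its difference for Il6ra was -0.99 (limma adjusted p = 0.0599, and 0.00383 with the block), in a contrast where 6.61% of genes were called, and 14.8% with the block. The comparisons with LPS and with control share their arrays and are not independent of each other.

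Luteolin alone left no measurable difference in Il6ra, at 0.01 on the log2 scale (SE 0.28, 95% confidence interval -0.60 to 0.62, limma adjusted p = 0.998). Whether luteolin acted differently in resting and in LPS-treated cells was tested with the interaction, which was 1.21 for Il6ra (SE 0.39, unadjusted p = 0.0103 and adjusted p = 0.999 by limma across all genes). With the replicate block it missed the threshold too (SE 0.22, limma unadjusted p = 2.92e-04 and adjusted p = 0.261). In that fit 798 genes had an unadjusted p under 0.05 in the interaction. In the order of the Il6ra levels, LPS was the lowest and luteolin + LPS next, with control and luteolin above. Without the block no neighbouring step passed the test. With it, luteolin + LPS differed from LPS and from control, and control and luteolin were still not told apart. Limma called 0% of the genes in luteolin versus control and 0% in the interaction, where 1097 and 380 genes had an unadjusted p under 0.05. With array weights these contrasts had 962 and 5 calls.

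The second probe set of Il6ra, 1422270_a_at, gave smaller differences. Its signals were 134, 213 and 220 in the control, 159, 191 and 233 with luteolin, 94.5, 104 and 136 with LPS, and 131, 171 and 134 with luteolin + LPS. LPS replicate 3 lay just above control replicate 1, so these groups overlapped. In the fit on each of 24342 probe sets, LPS versus control was -0.75 (SE 0.22, limma adjusted p = 0.103, and 0.0230 with the block), and luteolin + LPS versus LPS was 0.39 (SE 0.22, limma adjusted p = 0.477). Luteolin versus LPS, read for single probe sets after the values had been seen, was 0.80 (SE 0.22, limma adjusted p = 0.0603, and 0.0122 with the block). These directions were those of 1452416_at, with less than 1 on the log2 scale in each. In that fit 3.19% of probe sets were called in LPS versus control (8.58% with the block), 0.246% in luteolin + LPS versus LPS (3.06% with the block) and 6.41% in luteolin versus LPS (13.9% with the block).

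**Figure D2:**
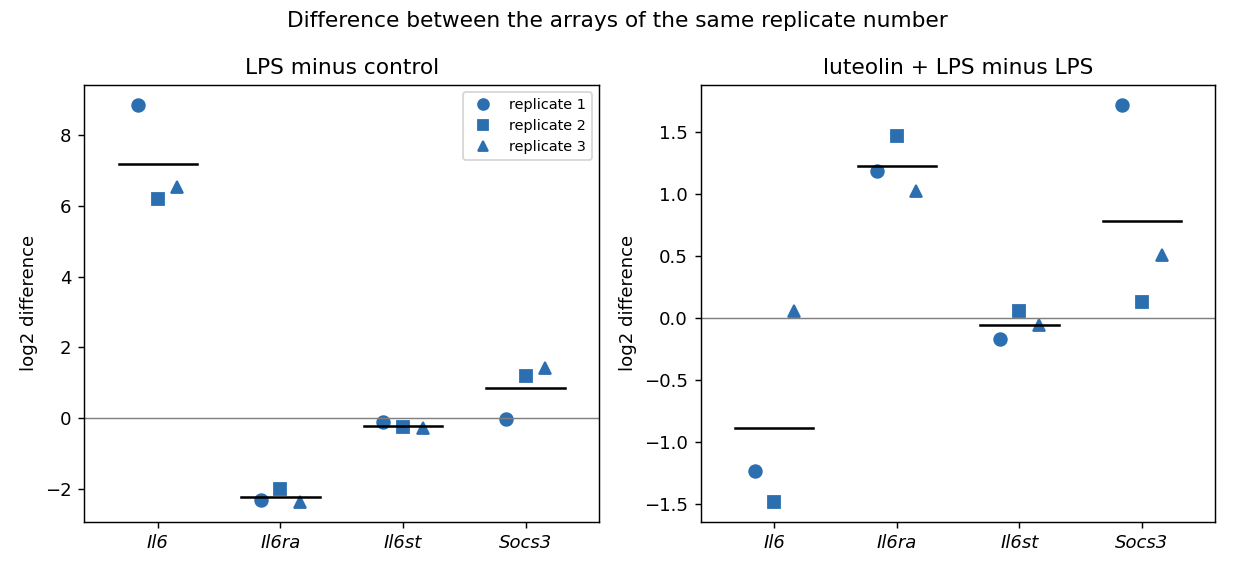
Log2 difference between arrays of the same replicate number (y axis) for the 4 genes, LPS minus control on the left and luteolin + LPS minus LPS on the right, each panel with its own scale. Symbols give the replicate number and lines the mean of 3. On the right, Il6ra lies between 1.02 and 1.47 in all replicates, whereas the Il6 differences run from -1.48 to 0.06.

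Il6st, which encodes gp130, had no difference past the test. The probe set 1452843_at had signals of 709, 845 and 727 in the control and 727, 766 and 744 with luteolin. With LPS they were 653, 716 and 602, and with luteolin + LPS 580.0, 746 and 579.8. The difference of LPS from control was -0.21 (SE 0.13, 95% confidence interval -0.49 to 0.07, limma adjusted p = 0.385). For this probe set alone, a loss beyond 0.49 on the log2 scale was outside the interval. Luteolin + LPS versus LPS was -0.06 (SE 0.13, 95% confidence interval -0.34 to 0.23, limma adjusted p = 0.894), and luteolin versus control was -0.02 (SE 0.13). Luteolin + LPS versus luteolin was -0.24 (SE 0.13, limma adjusted p = 0.552). The interaction was -0.03 (SE 0.18). In the order luteolin + LPS, LPS, luteolin and control, from low to high, no neighbours differed beyond their spread.

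The other 3 probe sets of Il6st did not all move alike. For 1437303_at the signals were 631, 833 and 677 in the control and 823, 914 and 787 with luteolin. With LPS they were 414, 615 and 539.9, under every control array, and with luteolin + LPS 531, 836 and 644. LPS versus control was -0.46 for it (SE 0.19, 95% confidence interval -0.89 to -0.03, limma adjusted p = 0.226, and 0.0453 with the block). Luteolin + LPS versus LPS was 0.35 (SE 0.19, limma adjusted p = 0.459). Luteolin versus LPS was 0.70 (SE 0.19, limma adjusted p = 0.0580, and 0.00680 with the block). The mean signals of 1421239_at lay between 286 and 313 and those of 1460295_s_at between 275 and 330.1 over the 4 conditions. Their differences of LPS from control were 0.08 and 0.02. The LPS values of gp130 therefore rest on which probe set is read.

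**Figure D3:**
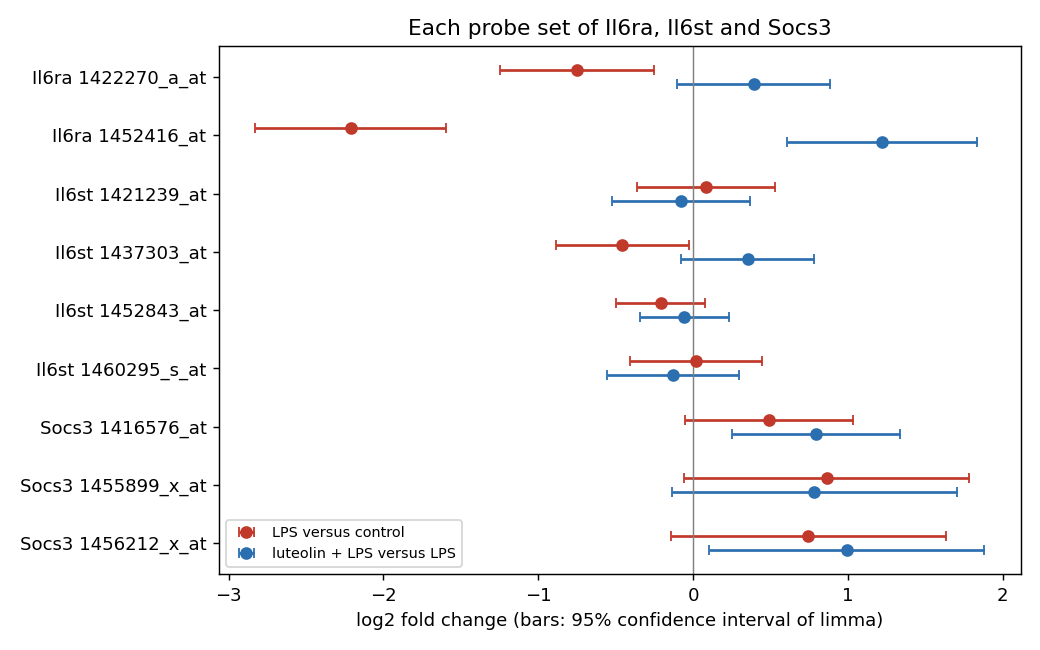
Log2 fold change of each probe set of Il6ra, Il6st and Socs3 (x axis) in LPS versus control and in luteolin + LPS versus LPS, with the 95% confidence interval of limma as bars. In LPS versus control the Il6ra probe sets lie at -2.21 and -0.75, those of Il6st between -0.46 and 0.08, and those of Socs3 between 0.49 and 0.86.

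Socs3, the inhibitor that STAT3 induces, was highest where luteolin and LPS were given together. The probe set 1455899_x_at had signals of 313, 462 and 413 in the control and of 618, 485 and 425 with luteolin. With LPS they were 309, 1063 and 1099, and with luteolin + LPS 1015, 1162 and 1559. LPS replicate 1 stood at the level of the control arrays, while replicates 2 and 3 were above all arrays without LPS. The LPS and luteolin + LPS arrays overlapped. The suffix of the probe set marks probes that can also match other transcripts, so its level is less certain.

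Each step in the order control, luteolin, LPS and luteolin + LPS was within the spread of the arrays. Socs3 differed by 0.36 for luteolin versus control (SE 0.41, limma adjusted p = 0.876) and by -0.50 for luteolin versus LPS (SE 0.41, limma adjusted p = 0.534). It differed by 0.86 for LPS versus control (SE 0.41, 95% confidence interval -0.05 to 1.78, limma adjusted p = 0.270). Without LPS replicate 1 that difference was 1.47 (limma adjusted p = 0.0103), and with array weights 1.25 (limma adjusted p = 0.00208). For luteolin + LPS versus LPS it was 0.78 (SE 0.41, 95% confidence interval -0.13 to 1.70, limma adjusted p = 0.417), with 1.72, 0.13 and 0.50 by replicate. The largest of these came from the low LPS array of replicate 1, and without that array the difference was 0.18. With array weights it was 0.39.

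The ends of that order did differ. Socs3 was 3.13-fold higher in luteolin + LPS than in the control, 1.65 on the log2 scale (SE 0.41, limma adjusted p = 0.0401), in the contrast added after the values had been seen. The groups did not overlap, but the adjusted p rose to as much as 0.123 when single arrays were left out, and 9 of the 12 such fits lost the call. Luteolin + LPS versus luteolin was 1.28 (SE 0.41, limma adjusted p = 0.197), and the 3 arrays of each group did not overlap. The interaction was 0.42 (SE 0.59, limma adjusted p = 0.999).

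The other probe sets of Socs3 had the same order at LPS and luteolin + LPS. For 1416576_at the signals were 142, 147 and 168 in the control, 173, 157 and 159 with luteolin, 138, 287 and 246 with LPS, and 318, 337 and 477 with luteolin + LPS. For 1456212_x_at the LPS signals were 135, 445 and 467 and the luteolin + LPS signals 477, 607 and 759.8. In both probe sets all luteolin + LPS arrays lay above all LPS arrays, and LPS replicate 1 was under the control arrays. The differences between these groups were 0.80 (SE 0.25, limma adjusted p = 0.179) and 0.99 (SE 0.40, limma adjusted p = 0.301), which missed the threshold. Against luteolin alone, 1416576_at rose by 1.19 with luteolin + LPS (SE 0.25, limma adjusted p = 0.0460, with 1.29% of probe sets called), whereas 1456212_x_at differed by 1.31 (SE 0.40, limma adjusted p = 0.203). Against the control, 1416576_at rose by 1.29 (SE 0.25, limma adjusted p = 0.0162) and 1456212_x_at by 1.73 (SE 0.40, limma adjusted p = 0.0364), in the contrast added later, where 4.53% of probe sets were called. In that fit 1455899_x_at was at a limma adjusted p of 0.0509, and 0.0264 with the block.

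The wider pathway was read from 8 gene lists that cover the cytokine family, receptors, signal transduction, feedback, STAT3 targets, the control of Il6 transcription and mRNA stability, and receptor shedding. Beside the 4 genes above, the lists named 85 genes, of which 77 had a value and 65 were tested. The lists were chosen with earlier results of these data known, so their counts beside the shares of all genes are a description. In LPS versus control, 9 of the 65 rose and 2 fell, where 1.96% and 2.22% of all genes did. With the replicate block 15 rose and 5 fell, against 4.3% and 6.78% of all genes, so the count that fell was near the share of all genes in both fits. The median log2 fold change of the 65 was 0.10, against -0.04 over all genes tested. None passed in luteolin + LPS versus LPS, and the median was -0.02 against 0.02 over all genes, where limma called 61 genes and 1795 had an unadjusted p under 0.05. When luteolin + LPS was compared with luteolin, 7 rose and 1 fell, and 11 and 1 with the block, where 1.81% and 4.59% of all genes were called in either direction. Of the 11 called in LPS versus control, Bcl3, Ebi3 and Nfkbiz stayed called whichever array was left out, and the other 8 lost the call in 4 to 8 of the 12 fits without 1 array. Across the 11 alternatives, Zc3h12a lost the call in 4, Pim1 in 2, and Cebpa and Socs6 in 1 each. No listed gene passed in luteolin versus control.

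Of the cytokines related to IL-6, 1 of 4 tested rose with LPS, where 1.96% of all genes did. The median of the 4 was 0.33. Ebi3, a subunit that pairs with other chains to form IL-27 and IL-35, had signals of 59.5, 36.5 and 61.3 in the control and 399, 911 and 1055 with LPS. It rose by 3.83 on the log2 scale (SE 0.58, limma adjusted p = 0.00506), or by 3.68 with each array under 50 set to 50. With luteolin + LPS the signals were 273, 101 and 662, lower than the LPS array in every replicate, and the difference from LPS was -1.47 (SE 0.58, limma adjusted p = 0.271). Oncostatin M (Osm), which also signals through gp130, differed by 0.54 and cardiotrophin 1 (Ctf1) by 0.12, and neither passed. None of the 3 other receptors tested passed, with differences of 0.36 for Il27ra, 0.15 for Il31ra and 0.08 for Cntfr.

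None of the 10 tested genes of signal transduction passed with LPS in the fit without a block, and their median was 0.22. Stat3 itself had signals of 1359, 1380 and 1186 in the control and 1921, 2122 and 1771 with LPS, with no overlap. Its difference was 0.57 (SE 0.14, limma adjusted p = 0.0503, and 0.0112 with the block). Over the 11 alternatives its limma adjusted p ran from 0.00412 to 0.0859, and 3 of them missed the threshold. Of the 12 fits without 1 array, 11 missed it. With luteolin + LPS the Stat3 signals were 1774, 1671 and 1487, and the difference from LPS was -0.24 (SE 0.14, limma adjusted p = 0.484). The kinases Jak2 and Tyk2 differed by 0.95 and 0.51 in LPS versus control and did not pass.

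Of 11 tested feedback genes, at a median of -0.13, 1 fell with LPS and none rose, where 2.22% and 1.96% of all genes did. This was Socs6, another member of the SOCS family, at -0.80 (SE 0.16, limma adjusted p = 0.0232), with signals of 1218, 870 and 939 in the control and 601, 577 and 550 with LPS. Socs6 was also lower in luteolin + LPS than in luteolin, by -0.87 (SE 0.16, limma adjusted p = 0.0250). Socs5 differed by -0.89 in LPS versus control (SE 0.23, limma adjusted p = 0.0583, and 0.0340 with the block) and by 0.87 in luteolin + LPS versus LPS (SE 0.23, limma adjusted p = 0.119). Socs4 differed by -0.36 and did not pass.

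STAT3 target genes held the most members that rose with LPS. Of 16 tested, 5 rose and none fell, against 1.96% of all genes raised. With the replicate block 8 rose, against 4.3% of all genes. Their median was 0.48. This list too was chosen with earlier results of these data known, so its counts are a description. Bcl3, an atypical IkB protein, rose by 2.28 (SE 0.21, limma adjusted p = 4.14e-04) and the growth regulator Myc by 2.66 (SE 0.52, limma adjusted p = 0.0188). The adhesion molecule Icam1 rose by 1.86, the kinase Pim1 by 1.64 and the AP-1 subunit Junb by 1.52. Several of these genes are also known targets of NFkB. Bcl3 differed by -0.28 in luteolin + LPS versus LPS (SE 0.21, limma adjusted p = 0.591).

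Among 11 tested regulators of Il6 transcription, 2 rose with LPS and 1 fell, where 1.96% and 2.22% of all genes did. The median of the 11 was 0.11. Nfkbiz encodes IkBζ, a nuclear cofactor that Il6 induction requires. Its signals were 254, 285 and 345 in the control, 3338, 1476 and 1327 with LPS and 2967, 2370 and 2916 with luteolin + LPS. LPS raised it by 2.68 (SE 0.30, limma adjusted p = 0.00111). In luteolin + LPS versus LPS it differed by 0.55 (SE 0.30, limma adjusted p = 0.427), and the arrays overlapped. Atf3, a stress-induced repressor of Il6, rose by 1.06 (SE 0.21, limma adjusted p = 0.0188).

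Cebpa, a C/EBP factor of the myeloid lineage, fell by 1.10 on the log2 scale with LPS (SE 0.23, limma adjusted p = 0.0224). Its signals were 640, 523 and 569 in the control, 185, 359 and 290 with LPS and 428, 525 and 465 with luteolin + LPS. The last 3 lay above all LPS arrays, at a difference of 0.81 (SE 0.23, limma adjusted p = 0.127). Cebpb, the C/EBP factor tied to Il6 induction, differed by 0.68 in LPS versus control (limma adjusted p = 0.0833, and 0.0449 with the block) and rose by 0.98 in luteolin + LPS versus luteolin (SE 0.20, limma adjusted p = 0.0340).

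Of 10 genes that set the stability of Il6 mRNA, 1 rose with LPS, where 1.96% of all genes did. The median of the 10 was -0.19. Zc3h12a encodes Regnase-1, an RNase that degrades Il6 mRNA. Its signals were 76.2, 92.5 and 92.9 in the control, 406, 159 and 159 with LPS and 464, 330.2 and 411 with luteolin + LPS. It rose by 1.33 with LPS (SE 0.32, limma adjusted p = 0.0433) and by 2.23 in luteolin + LPS versus luteolin (SE 0.32, limma adjusted p = 0.00500). The call in LPS versus control was lost in 8 of the 12 fits without 1 array and in 4 of the 11 alternatives. Within LPS-treated cells the arrays with luteolin were higher in each replicate, by 0.87 on average (SE 0.32, limma adjusted p = 0.229). Zfp36, another factor that destabilizes cytokine mRNA, differed by 0.69 in LPS versus control (limma adjusted p = 0.151, and 0.0389 with the block). Its relative Zfp36l1 differed by -0.92 and did not pass.

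Of the 3 tested genes of receptor shedding, none passed in LPS versus control and 2 rose in luteolin + LPS versus luteolin. In the latter contrast 1.81% of all genes were called in either direction. Adam17, the protease that cleaves the receptor chain, rose there by 0.65 (SE 0.13, limma adjusted p = 0.0370). Rhbdf2, whose product iRhom2 brings ADAM17 to the cell surface, rose by 0.67 (SE 0.14, limma adjusted p = 0.0389). In LPS versus control they differed by 0.42 and 0.26, and the protease gene Adam10 by -0.47. With the block, Adam17 (limma adjusted p = 0.0477) and Adam10 (limma adjusted p = 0.0493) passed there. Whether these responses to LPS differ with and without luteolin was tested with the interaction, and none of the listed genes passed it.

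With the replicate block, 5 of the 65 listed genes passed in luteolin + LPS versus LPS, 2 raised and 3 lowered. Of all genes 1.95% were raised and 2.84% lowered, so both counts were near the shares of all genes. None of the 5 passed without the block. They are named here after their values had been seen. Arid5a, which stabilizes Il6 mRNA, rose by 0.69 and the adaptor Shc1 by 0.53. Gab2, an adaptor, fell by 0.78, Stat5a by 0.74 and the phosphatase gene Ptpn2 by 0.48, all on the log2 scale. Their limma adjusted p with the block lay between 0.00976 and 0.0434.

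**Figure D4:**
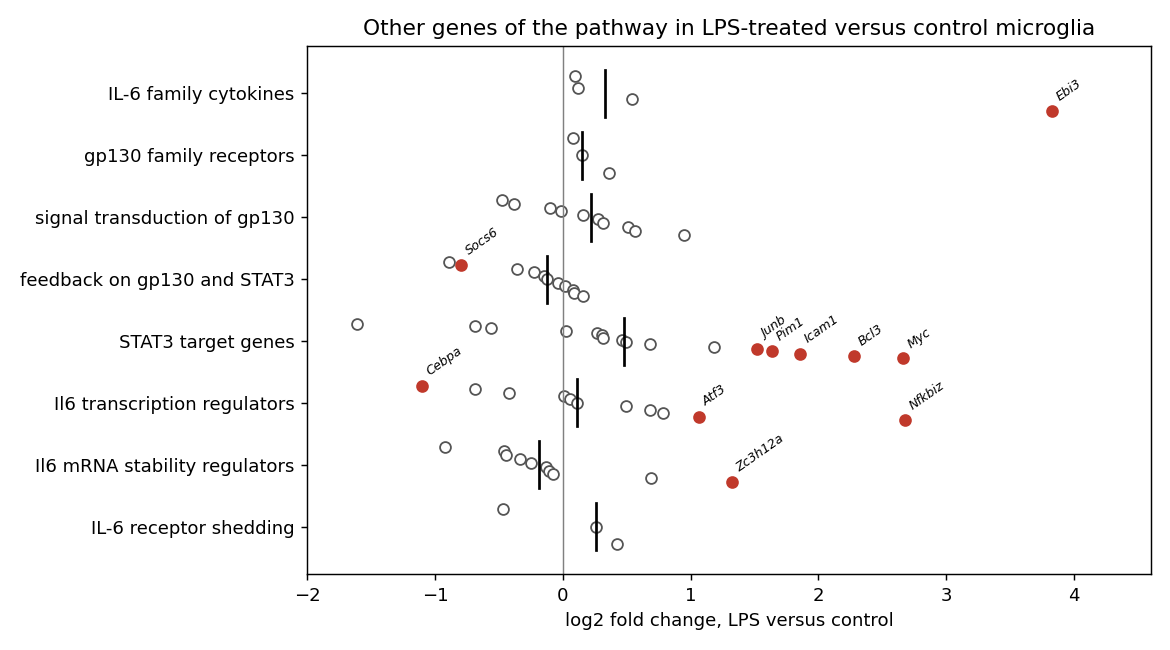
Log2 fold change of the 65 other pathway genes in LPS versus control (x axis), by list, with a gene in 2 lists shown in both. Filled symbols are genes with a limma adjusted p under 0.05 and short lines the median of each list. The STAT3 target genes hold 5 of the 9 that rose, and Socs6 and Cebpa are the 2 that fell.

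The genes with the pattern most like each of the 4 across the 12 arrays were found by Pearson's r of the log2 signals, given as a description, since the arrays share their conditions. For Il6 these were Acod1 (r = 0.991), Bcl3 (0.988) and Sod2 (0.988). Acod1, which encodes the enzyme that makes itaconate, had mean signals of 94.0 in the control, 13489 with LPS and 7403 with luteolin + LPS. For Il6ra they were Ocstamp (r = 0.956), Csk (0.953) and Sh2b3 (0.950). Ocstamp, a gene of osteoclast fusion, had mean signals of 247 in the control, 326 with luteolin, 49.2 with LPS and 97.0 with luteolin + LPS. For Socs3 they were Skil (r = 0.939), Rnf149 (0.932) and Phlda1 (0.927), and Skil had mean signals of 638, 689, 828 and 1181 in the order control, luteolin, LPS and luteolin + LPS. The closest genes to Il6st were Cul4a (r = 0.891), Eif3m (0.888) and Neurl2 (0.888), with lower values than for the other 3.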

How the data were processed

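Transcripts were measured on Mouse Genome 430 2.0 arrays of Affymetrix. Per the study's methods, the authors made 1 value per probe set by RMA. That algorithm normally includes background correction, quantile normalization and median polish, which would hide a shift common to most genes. For labelling, the sample labels name a kit for sense-strand DNA, the paper does not, and its effect was not tested. The deposited values are linear intensities, here called signal, with array medians of 52.2 to 56.4 and correlations within a group of 0.978 to 0.996.

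Intensities were log2-transformed. Of 45101 probe sets, 34958 named 1 gene, 932 several and 9211 none here. Names and upstream sequences came from RefSeq tables of GRCm38.p6. Where a gene had several probe sets (9012 genes), the one highest in mean log2 was used. The test covered 12071 genes whose mean signal reached 50 in at least 1 condition, and left out 6123. A single linear model (limma 3.58.1, R 4.3.3) estimated the 4 group means from the 12 arrays. P-values were adjusted by Benjamini-Hochberg over all genes tested, with a threshold of 0.05. The methods' test on single probes was not used here. The procedure was tested on simulated data. Figures were drawn with matplotlib 3.10.9.

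Replicate numbers 1 to 3 come from the labels. In all 18 pairs of arrays that share a number, deviations from the group means correlated over 0.1 (r of 0.101 to 0.591, median 0.421). The median for unlike numbers was -0.30. Since deviations cancel within a group, this negative value follows from the positive one and is not separate evidence. The numbers were taken to pair the arrays. For a single value printed here, the fit with that block is given where it changes the call. Other calls that it changed among the listed genes are given as counts only. The members and gene lists were chosen with earlier results of these data known. Named genes were the 4 members, listed genes that passed in any fixed contrast, up to 3 genes per list with the largest fold change with LPS, and the 3 genes most like each member. The number of arrays limits the precision. Whether the arrays of groups overlapped is a description, and how often they did so over all genes was not counted. Alternatives were the block, also as a random effect, other filters, a floor of 50, 16 added before log2, averaged probe sets, other normalizations, array weights, only the groups compared, and each array left out.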

Additional observations from a re-analysis of the deposited data

How the results depend on the processing

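The Il6 rise and the Il6ra fall with LPS kept their direction and passed the test in all 11 alternatives and all 12 fits without 1 array. The other calls on Il6ra changed with the model. With the replicate block, and with the replicate number as a random block, Il6ra passed at 1.22 in luteolin + LPS versus LPS, at -0.999 versus luteolin and at -0.99 versus control, and with array weights at 0.98, -1.19 and -1.17. With array weights Socs3 passed in LPS versus control (1.25) and in luteolin + LPS versus luteolin (1.52). In the fit on genes, the block changed no other call of the 4 at the probe set used for each. Small differences turned sign. With probe sets averaged, Il6st was at 0.022 in luteolin + LPS versus LPS and at 0.13 in luteolin versus control, and Socs4 at 0.48 with LPS. After another quantile normalization Il6st was at 0.032 in luteolin versus control. With arrays centred on their median, Il6ra was at -0.029 in luteolin versus control and the Il6st interaction at 0.0058.

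The number of genes called moved most. In LPS versus control it was 505, and 1338 with the block, 1259 with the random block, 306 with only the groups compared and 1950 with array weights. The count in luteolin + LPS versus LPS was 61, and 578, 444, 0 and 292 in the same order. For luteolin + LPS versus luteolin it was 218, and 554, 480, 101 and 592. In luteolin versus control limma called 0 genes, and 34 with the block, 23 with the random block, 2 after quantile normalization and 962 with array weights. The interaction had 0 calls, 2 with signals under 50 set to 50 and 5 with array weights. Of the other pathway genes, 9 were raised in LPS versus control, and 15, 14 and 17 with the block, the random block and array weights, while 2 were lowered, and 5, 6 and 7 with those settings and 0 with only the groups compared. In luteolin + LPS versus LPS those 3 settings raised 2, 3 and 2 pathway genes, and the block lowered 3 and the random block 1.

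Without 1 array at a time, Socs3 ranged from 0.55 to 1.47 in LPS versus control, 1.11 to 1.43 in luteolin + LPS versus luteolin (passing without LPS replicate 1) and 1.47 to 1.78 in luteolin + LPS versus control, and its interaction from -0.18 to 0.73. The extremes of 1.47 in LPS versus control and -0.18 came without LPS replicate 1. Il6ra ranged from -1.30 to -0.79 in luteolin + LPS versus luteolin and from -1.29 to -0.78 in luteolin + LPS versus control, passing without luteolin + LPS replicate 2 in both and without LPS replicate 1 in the latter, and from -0.13 to 0.19 in luteolin versus control. Il6st ranged from -0.18 to 0.0084 in luteolin + LPS versus LPS, -0.072 to 0.055 in luteolin versus control and -0.15 to 0.032 in the interaction. In LPS versus control Socs4 ranged from -0.61 to 0.043 and Cntfr from -0.017 to 0.12. The genes called numbered 197 to 661 in LPS versus control, 11 to 142 in luteolin + LPS versus LPS, 69 to 303 in luteolin + LPS versus luteolin, 0 to 1 in luteolin versus control and 0 to 2 in the interaction. Pathway genes raised with LPS numbered 3 to 11 and lowered 0 to 3, and those raised in luteolin + LPS versus LPS 0 to 3. The cause of these shifts was not tested. Signals under 50 limit the Il6 comparison of luteolin with control, for which no value is given.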
